A study of Mus musculus with 6 samples.

Results

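Dimethylation of histone H3 at lysine 79 (H3K79me2) was compared between mouse hematopoietic progenitors carrying 2 mutants of the leukemia fusion protein MLL-AF9, D546R and D544R. The comparison covered every gene with a mean normalised count of 100 or more over the 3 H3K79me2 libraries, 8905 of the 24012 genes counted. Progenitors isolated from mouse bone marrow had been transduced with a retrovirus expressing MLL-AF9 D546R, MLL-AF9 D544R or unmutated MLL-AF9 (WT). Each name stands for a single exchange of aspartate for arginine. All 3 groups therefore carry the fusion, and none is a progenitor without it. The fusion is driven from a retrovirus and not from its own locus, and the cells keep their endogenous genes. Chromatin immunoprecipitation followed by sequencing gave 1 library per genotype with an antibody to H3K79me2, and 1 per genotype with an antibody to trimethylated H3K79 (H3K79me3). The sources used here do not say whether a library came from 1 culture or animal or from a pool.

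MLL fusions join the amino-terminal, chromatin-bound part of the methyltransferase MLL to a partner protein, here AF9. AF9 binds DOT1L, the enzyme that methylates H3K79, and the fusion thereby brings DOT1L to genes that MLL occupies, above all the HoxA genes and Meis1. H3K79 methylation spreads over the transcribed part of active genes, so reads were counted over whole genes. As labelled, each region reaches from the transcript end to a point 2 kb upstream of the start. The title of the series ties the amount of DOT1L that the fusion recruits to methylation of its target genes. Setting the mutants against each other asks how far the position of the exchanged residue matters at those genes.

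With 1 library a side there was no replicate error and no test. Each log2 ratio of normalised counts (D546R over D544R) is given with its 95% counting interval, which covers counting error only and not variation between cultures. A gene is called lower or higher in D546R when its ratio was at least 2-fold and its counting interval excluded no change. The D546R, D544R and WT H3K79me2 libraries held 3558329, 4287873 and 5993741 counts, and 795, 164 and 138 regions in them had no count. From the empty short regions, 4.78, 3.26 and 4.05 reads per independent fragment were estimated, and dividing counts by these numbers gives the wider fragment interval quoted where it matters. The median gene among 46 genes silent in blood had 1.44 normalised counts per kb in D546R, 2.24 in D544R and 2.13 in WT, while their summed raw counts were 2000, 2680 and 3758. In regions of low WT density the pooled log2 ratio of D546R over D544R lay between -0.13 and 0.06 in each length class. Of all regions 41.1% overlapped another region and share reads with it.

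The labelled cell type was checked against marker genes. Among 8 progenitor markers the shared blood cell gene Ptprc had 27.4 normalised counts per kb in D546R, 19.8 in D544R and 21.6 in WT. Spi1, the gene of the myeloid transcription factor PU.1, had 29.4, 27.6 and 18.6, and Myb had 16.5, 17.6 and 18.1. Kit, Cd34 and Flt3 lay between 2.15 and 5.21 in the 3 libraries, where the median silent gene lay between 1.44 and 2.24. No progenitor marker was without counts in any of the 3 libraries. The summed level of the 7 lymphoid markers was 16.5 normalised counts per kb in D546R, 15.4 in D544R and 15.8 in WT, and that of the 7 stroma and endothelium markers was 18.9, 17.6 and 17.2. In each of these 2 sets, 2 of the 7 markers reached the count minimum.

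In D546R, 78 of the 8905 genes were lower than in D544R, 0.876% of those tested, and 69 were higher, 0.775%. With fragment intervals the numbers were 77 (0.865%) and 69 (0.775%). Most genes differed little: the median log2 ratio was 0.09, the standard deviation across genes was 0.40, and 81.5% of genes lay within 0.5 of 0. The sides differed in the size of the signal they carried. Among the 899 genes with a mean of at least 1000, 21 were lower (2.34%) and 2 were higher (0.222%). The lower genes as a set held 0.966% of the counts over tested genes in D546R, 2.71% in D544R and 2.52% in WT. The higher genes held 0.694% in D546R, 0.299% in D544R and 0.397% in WT. In bulk chromatin, fewer cells with the mark at a gene and less of the mark per cell cannot be told apart.

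The balance of the calls depended on the scaling. Total counts gave 109 lower and 38 higher genes, size factors over all 6 libraries gave 62 and 87, and the summed counts of the silent genes gave 60 and 101. Size factors from the silent genes alone, a choice added after the data were seen, gave 45 and 200. They moved the median log2 ratio of all tested genes by 0.18, the one scaling that moved it by more than 0.1. The 45 genes that remained lower there were all among the 78. That was largely fixed in advance, because this scaling raised every ratio and so could only remove lower calls among the same genes. At the border of the 2-fold threshold, Exph5 (-1.01; 83, 214 and 377 counts in D546R, D544R and WT) was inside and Paqr5 (-0.99; 75, 191 and 225 counts) was outside. At the count minimum, Map2k2 with a mean of 100.03 was inside and Adck3 with 99.99 was outside.

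**Figure D1:**
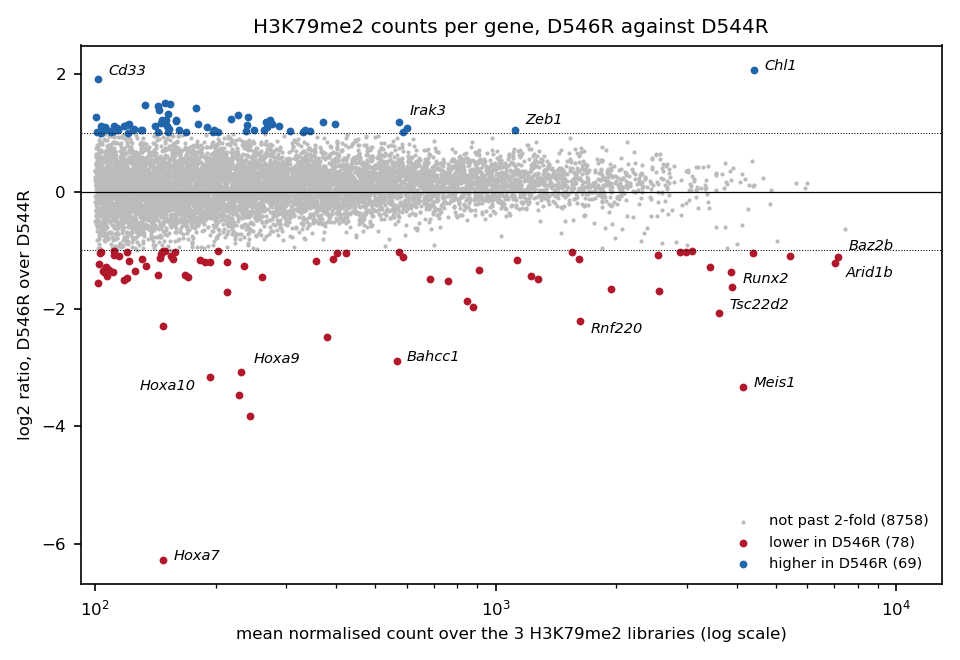
Log2 ratio of normalised H3K79me2 counts, D546R over D544R (vertical axis), against the mean normalised count over the 3 H3K79me2 libraries (horizontal axis, log scale), for 8905 genes. Red points are the 78 genes lower in D546R, blue points the 69 higher, and dotted lines mark a 2-fold difference; Meis1 stands apart among genes with a large mean count at -3.33, and Chl1 at 2.07 on the other side.

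Genes of the HoxA cluster and Meis1 were among those with the lowest ratios. HOXA proteins are homeodomain transcription factors that keep progenitors self-renewing, and MEIS1 is the homeodomain partner of HOXA9. Meis1 (NM_010789, mm9 chromosome 11, 18778430 to 18918972) had 480 counts in D546R, 6154 in D544R and 7372 in WT, or 628, 6329 and 5475 after normalisation. D546R alone was low, and D544R was above WT. The D546R level was 10.1-fold below D544R, a log2 ratio of -3.33 (counting interval -3.47 to -3.20, fragment interval -3.64 to -3.04). Of all counts over tested genes, Meis1 took 0.0150% in D546R, 0.162% in D544R and 0.139% in WT.

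Hoxa9 (NM_001277238, chromosome 6, 52171095 to 52177369), the member most closely tied to leukemia, had 35 counts in D546R, 378 in D544R and 350 in WT. Its log2 ratio was -3.07 (-3.63 to -2.58), and its region overlapped no other. Hoxa10 (chromosome 6, 52179195 to 52190853) had 26 counts in D546R, 302 in D544R and 319 in WT, a log2 ratio of -3.16 (-3.83 to -2.61). Hoxa7 (chromosome 6, 52163622 to 52168572) had 2 counts in D546R, 245 in D544R and 254 in WT. With so few counts in D546R its log2 ratio of -6.27 had a counting interval of -9.64 to -4.72 and a fragment interval of -18.47 to -3.12. Hoxa3 had 82 counts in D546R, 581 in D544R and 586 in WT, a log2 ratio of -2.47 (-2.83 to -2.14). In each of these genes WT was nearer to D544R, and D546R was far below both.

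The HoxA list, chosen with earlier results of these data known, had 11 members in the table. The 4 that reached the count minimum were all lower in D546R, against 0.876% of all tested genes. Their median log2 ratio was -3.12, against 0.09 over all tested genes. The other 7 had fewer counts. Among them Hoxa5 had 2 counts in D546R, 70 in D544R and 43 in WT, a log2 ratio of -4.47 (-7.85 to -2.87). Hoxa6 had 7, 83 and 65 counts, a log2 ratio of -3.13 (-4.58 to -2.11). Over the 10 members with a mean of at least 10 the median was -2.77. The members added there besides Hoxa5 and Hoxa6 were less low than Hoxa3. The regions of Hoxa3, Hoxa5, Hoxa6, Hoxa7 and Hoxa10 overlap neighbours in the cluster, so these values are not separate measurements.

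The start sites of Meis1 and Hoxa9, where the fusion's best known targets begin, are printed with that of Chl1, the gene with the highest ratio. Each window runs from 250 bases before to 50 bases after the start, from RefSeq on GRCm38.p6, and capitals mark CG dinucleotides, which read the same on both strands. The counted regions are on mm9, so their coordinates differ from those of the windows. Meis1 lies at chr11:19018920-19019219 (minus strand), Hoxa9 at chr6:52227321-52227620 (minus strand) and Chl1 at chr6:103510626-103510925 (plus strand).
Meis1: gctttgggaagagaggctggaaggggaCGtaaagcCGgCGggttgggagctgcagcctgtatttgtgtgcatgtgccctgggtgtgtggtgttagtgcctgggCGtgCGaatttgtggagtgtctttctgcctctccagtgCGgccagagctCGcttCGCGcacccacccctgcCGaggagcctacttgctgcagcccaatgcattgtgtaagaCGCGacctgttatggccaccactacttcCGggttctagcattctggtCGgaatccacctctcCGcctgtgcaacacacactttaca
Hoxa9: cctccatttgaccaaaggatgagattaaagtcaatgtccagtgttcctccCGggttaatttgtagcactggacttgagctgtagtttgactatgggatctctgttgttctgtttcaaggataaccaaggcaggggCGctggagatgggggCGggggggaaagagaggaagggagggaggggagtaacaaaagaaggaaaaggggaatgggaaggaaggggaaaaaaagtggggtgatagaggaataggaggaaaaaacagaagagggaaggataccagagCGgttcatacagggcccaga
Chl1: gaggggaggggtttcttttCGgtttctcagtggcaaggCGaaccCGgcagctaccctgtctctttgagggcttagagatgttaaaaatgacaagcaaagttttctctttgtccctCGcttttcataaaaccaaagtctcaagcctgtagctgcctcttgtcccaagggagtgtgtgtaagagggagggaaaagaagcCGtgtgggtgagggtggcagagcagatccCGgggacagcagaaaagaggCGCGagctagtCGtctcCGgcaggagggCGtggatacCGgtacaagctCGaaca
The Meis1 window held 15 CG dinucleotides, the Hoxa9 window 4 and the Chl1 window 13. Over 32851 mouse promoter windows of 300 bases the median was 7. At least as many as in Meis1, Hoxa9 and Chl1 were found in 34.6%, 68.6% and 37.9% of them. CG content was not compared between the called sets. A window was found for 70.5% of the lower genes, 82.6% of the higher genes and 78.9% of all tested genes.

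Six4, which encodes a homeodomain factor, and Eya1, which encodes a coactivator of factors of that kind, were also low in D546R. Six4 (NM_011382, chromosome 12, 74199245 to 74214232) had 53 counts in D546R, 182 in D544R and 233 in WT, a log2 ratio of -1.42 (-1.90 to -0.98). Eya1 (NM_001252192, chromosome 1, 14157038 to 14300280) had 247 counts in D546R, 1232 in D544R and 1405 in WT, a log2 ratio of -1.97 (-2.17 to -1.77). Both genes had D544R and WT together and D546R apart.

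Of the 25 listed targets of MLL fusions outside HoxA, 23 were tested and 9 were lower in D546R, and none was higher. Over all tested genes 0.876% were lower and 0.775% higher. The list was chosen with earlier results of these data known, so it is not independent of them. The median log2 ratio of the 23 was -0.76, against 0.09 over all tested genes, and 19 of them were below 0, against 39.2%. Besides Meis1, Six4 and Eya1, the lower members included Chd9, Runx2, Arid1b, Mef2c and Jmjd1c. Runx2, a Runt family transcription factor, had 1250 counts in D546R, 4902 in D544R and 6755 in WT, a log2 ratio of -1.62 (-1.71 to -1.53). Mef2c, a MADS box factor of progenitors, had 626 counts in D546R, 1757 in D544R and 2982 in WT, a log2 ratio of -1.14 (-1.27 to -1.01). For Mef2c, D544R also lay below WT: the normalised counts were 820 in D546R, 1807 in D544R and 2215 in WT. Jmjd1c, a histone demethylase family gene, had 1974 counts in D546R, 5162 in D544R and 7067 in WT, a log2 ratio of -1.04 (-1.11 to -0.96). With size factors over all 6 libraries it stood at -0.99 and with the summed silent genes at -0.96, short of 2-fold, which leaves 8 lower targets. With the silent genes alone 7 were lower, and Mef2c was the other gene lost.

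Other targets did not reach 2-fold. The transcriptional repressor gene Zeb2 stood at -0.90 (-0.99 to -0.81), the cell cycle kinase gene Cdk6 at -0.84 (-0.91 to -0.77), the stem cell adaptor gene Lmo2 at -0.76 and the splicing regulator gene Mbnl1 at -0.64. Pbx3, another HOX cofactor gene, had 513 counts in D546R, 862 in D544R and 1230 in WT, a log2 ratio of -0.40 (-0.56 to -0.24). Flt3, a receptor of early progenitors, was at -0.23 (-0.58 to 0.12) and Myb, a factor they need to proliferate, at -0.09 (-0.26 to 0.08). Their counting intervals included no change. Runx1, the other Runt factor on the list, went the opposite way to Runx2: it had 3084 counts in D546R, 2927 in D544R and 3396 in WT, or 4037, 3010 and 2522 after normalisation, a log2 ratio of 0.42 (0.35 to 0.50). The highest member was Cpeb2, an mRNA-binding protein gene, at 0.70.

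Among genes with a mean of at least 1000, the 21 lower ones included genes that encode chromatin and transcription proteins, several of them picked out after their values were seen. Tsc22d2, a TSC22 domain family gene (NM_001081229, chromosome 3, 58217610 to 58270709), had 915 counts in D546R, 4902 in D544R and 6213 in WT, a log2 ratio of -2.07 (-2.18 to -1.97). Rnf220, a ubiquitin ligase gene, had 441 counts in D546R, 2581 in D544R and 2221 in WT, a log2 ratio of -2.20 (-2.35 to -2.05). Chd9, a chromodomain remodeler gene, had 709 counts in D546R, 2902 in D544R and 5059 in WT, a log2 ratio of -1.68 (-1.81 to -1.57). Rnf220 was higher in D544R than in WT after normalisation, with 2654 against 1650, and Chd9 was lower, with 2985 against 3757.

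Arid1b and Arid2 encode subunits of the SWI/SNF remodeling complexes. Arid1b had 2879 counts in D546R, 8471 in D544R and 11596 in WT, a log2 ratio of -1.21 (-1.27 to -1.15). Arid2 had 1319 counts in D546R, 3404 in D544R and 4991 in WT, a log2 ratio of -1.02 (-1.11 to -0.93), a call lost with size factors over all 6 libraries and with the summed silent genes. Bcor, a Polycomb corepressor gene whose product binds AF9, had 501 counts in D546R, 1727 in D544R and 1673 in WT, a log2 ratio of -1.44 (-1.58 to -1.29). Nipbl, which loads cohesin, stood at -1.10 (-1.17 to -1.03), Baz2b, a bromodomain gene, at -1.10 (-1.16 to -1.05), and Cdk13, a kinase that acts on RNA polymerase II, at -1.38 (-1.46 to -1.29). The calls of Nipbl and Baz2b were lost with the silent genes alone. Each of these genes had its lowest normalised count in D546R, with D544R and WT on the same side.

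Below a mean of 1000, Bahcc1, a gene for a chromatin reader with a BAH domain, had 103 counts in D546R, 969 in D544R and 762 in WT, a log2 ratio of -2.88 (-3.19 to -2.59). The centromere protein gene Cenpv had 30 counts in D546R, 189 in D544R and 283 in WT, a log2 ratio of -2.29 (-2.91 to -1.75). Zbtb25, a zinc finger gene, stood at -1.86 (-2.07 to -1.66). The ribosomal protein gene Rpl6 had 44 counts in D546R, 143 in D544R and 162 in WT, a log2 ratio of -1.34 (-1.87 to -0.86). Rpl6 has processed copies elsewhere in the genome, and the sources used here do not say how reads that match several places were counted.

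Chl1 was the most different gene in the other direction. It encodes a cell adhesion molecule of the L1 family known from neurons. Chl1 (NM_007697, chromosome 6, 103458869 to 103683029) had 5467 counts in D546R, 1653 in D544R and 5922 in WT, or 7157, 1700 and 4398 after normalisation. D546R was 4.21-fold above D544R, a log2 ratio of 2.07 (1.99 to 2.15). Here D544R was the library that stood apart: it lay below both others, and WT was nearer to D546R. The gene took 0.171% of counts over tested genes in D546R, 0.0436% in D544R and 0.111% in WT. Of the 19 genes listed with Chl1 for neural adhesion and synapses, 18 were tested. The other 17 lay between -0.13 (Opcml) and 0.25 (Nlgn1), and the median of all 18 was 0.12.

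Other higher genes included some known from myeloid cells, several of them likewise picked out after their values were seen. Cd33, a sialic acid-binding receptor of myeloid cells (NM_001111058, chromosome 7, 50780825 to 50788541), had 140 counts in D546R, 47 in D544R and 98 in WT, a log2 ratio of 1.91 (1.44 to 2.43). Ccr1, a chemokine receptor gene (NM_009912, chromosome 9, 123874958 to 123883525), had 203 counts in D546R, 91 in D544R and 137 in WT, 2.83-fold higher, with a counting interval of 1.14 to 1.88 on the log2 scale. After normalisation Cd33 stood at 183 in D546R, 48.3 in D544R and 72.8 in WT, and Ccr1 at 266, 93.6 and 102. D546R was above both others in each gene, and WT was nearer to D544R.

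Plek, a platelet and leukocyte kinase substrate gene, had 436 counts in D546R, 244 in D544R and 391 in WT, a log2 ratio of 1.18 (0.96 to 1.42). Irak3, which restrains Toll-like receptor signaling, had 623 counts in D546R, 346 in D544R and 736 in WT, a log2 ratio of 1.20 (1.00 to 1.39). Irak3 was one of 8 higher genes in which WT was nearer to D546R. The inhibitory receptor gene Lilrb4 stood at 1.33 (0.97 to 1.70) and the adjacent Gp49a at 1.14 (0.74 to 1.55). The survival genes Bcl2a1b and Bcl2a1d stood at 1.43 (1.11 to 1.77) and 1.04 (0.63 to 1.46). Each of these 2 pairs has nearly the same sequence, so the split of reads within a pair is uncertain. Further higher genes of this kind were Trem1 (1.13), an amplifier of neutrophil and monocyte activation, Cd300lf (1.19), an inhibitory myeloid receptor, Padi4 (1.05), an enzyme of granulocytes, and Anxa1 (1.45), an anti-inflammatory protein.

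The list of 25 mature myeloid genes, also chosen with earlier results of these data known, had 9 tested members. Ccr1 and Chil3 were higher, against 0.775% of all tested genes, and none was lower. Of the 9 ratios, 8 were above 0, against 60.8% of all tested genes, and the median was 0.71. Chil3, a chitinase-like gene of activated macrophages and granulocytes, had 348 counts in D546R, 213 in D544R and 157 in WT, a log2 ratio of 1.06 (0.81 to 1.31), a call lost with total counts, as were those of Padi4, Bcl2a1d and Zeb1. The granule gene Ltf stood at 0.94 (0.55 to 1.33) and the integrin gene Itgam at 0.87 (0.65 to 1.09). The summed level of the 8 mature myeloid markers was 71.2 normalised counts per kb in D546R, 40.0 in D544R and 34.0 in WT, and none of the 8 was without counts in any of the 3 libraries. Chil3 alone gave 20.7 of the D546R sum, and 9.95 and 5.30 of the others. The granule gene Camp ran the other way, with 3.85 normalised counts per kb in D546R, 7.31 in D544R and 3.09 in WT. Of the 8 markers only 3 reached the count minimum, so these per kb levels rest partly on low counts. The sum of the 8 progenitor markers, 5 of them at the count minimum, was 97.6, 85.8 and 77.7. That of the 5 mast cell and basophil markers, 1 of them at the minimum, was 28.2, 22.0 and 18.9. The share of mature cells in each culture was not measured, and its part in the higher myeloid genes was not tested.

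The remaining higher genes had other roles. Klf5, a Krüppel-like factor gene, had 176 counts in D546R, 80 in D544R and 116 in WT, a log2 ratio of 1.48 (1.10 to 1.89). The tight junction gene Cldn1 stood at 1.51 (1.14 to 1.89), Fdps, an enzyme of isoprenoid synthesis, at 1.39 (1.02 to 1.78), and the ETS family gene Elk4 at 1.27 (0.98 to 1.57). Zeb1, a zinc finger repressor gene related to Zeb2, had 1323 counts in D546R, 815 in D544R and 1054 in WT, a log2 ratio of 1.05 (0.92 to 1.17). Zeb1 and Zeb2 thus had ratios of opposite sign.

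**Figure D2:**
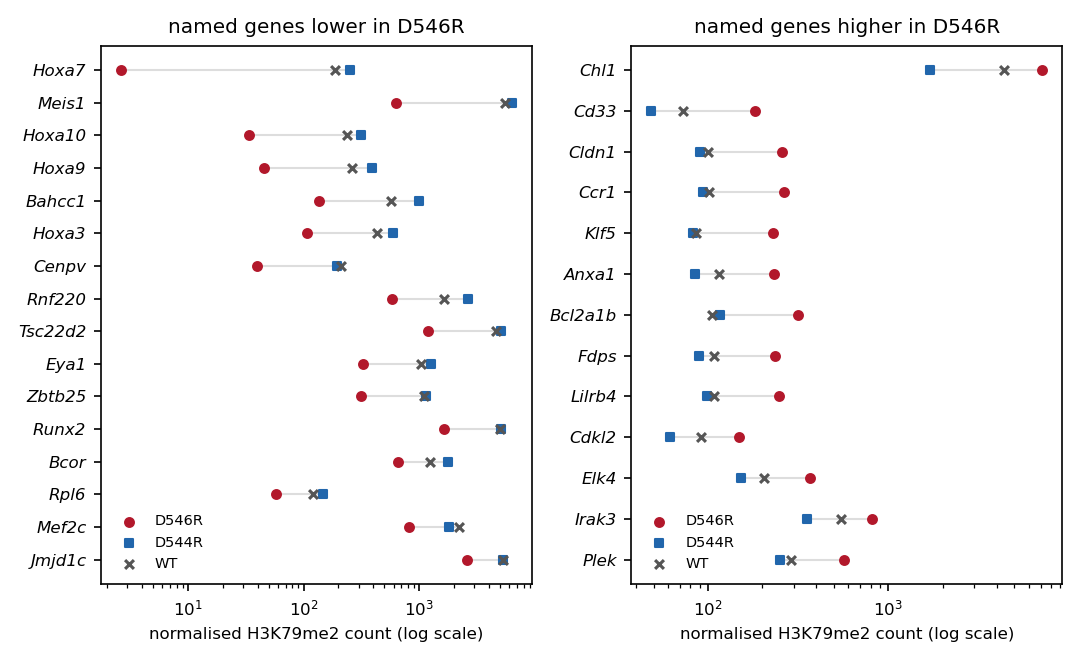
Normalised H3K79me2 count (horizontal axis, log scale) of 29 named genes past 2-fold in the D546R library (red circle), the D544R library (blue square) and the WT library (grey cross), 1 library each. Among the lower genes WT lies near D544R, for example Meis1 with 628 in D546R, 6329 in D544R and 5475 in WT; among the higher genes Chl1 has D544R apart from the other libraries.

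The WT library took no part in the ratio, so its place shows which mutant stood apart, although it entered the size factors and the count minimum. Across all tested genes WT was nearer to D544R than to D546R in 70.3%. Among the lower genes this was so for 76 of 78, the exceptions being Atp2c2 and Rn45s. Among the higher genes it was so for 61 of 69. In the lower genes the median log2 difference of WT from D546R was 1.13 and that from D544R was -0.14. In the higher genes the medians were -0.96 and 0.18. WT lay between the mutants in 59 of the 78 lower genes and 55 of the 69 higher genes, against 3584 of all 8905 tested. The call itself requires a wide gap between the mutants, so these counts are partly set by the rule and describe no separate trait.

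H3K79me2 density in WT, as counts per kb, ranked the genes without using either mutant and split them into 10 classes of equal size. The median log2 ratio was -0.05 over the 4 sparsest classes and 0.24 over classes 6 to 9. In the densest class it was 0.12. The calls were spread unevenly over this order. The densest class, 891 genes, held 34 of the 78 lower genes, 3.82% of its genes, and 3 higher genes. Classes 6 to 9, 3562 genes, held 54 of the 69 higher genes, between 1.01% and 2.02% of each class, against 0.775% of all tested genes. The 4 sparsest classes held 21 lower and 6 higher genes. Lower genes were 0.449% to 0.786% of each of these 4, near the 0.876% over all tested genes. Median region length fell along this order, from 109.7 kb in class 1 to 24.0 kb in class 10. Outside the densest class the median log2 ratio was 0.25 in regions under 15 kb and 0.03 in those of 50 kb or more. The part of length in this pattern was not tested.

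Within the densest class the lower genes were split by length, into classes chosen after the data were seen. Of its 218 regions of 50 kb or more, 16 (7.34%) were lower in D546R and 1 was higher. Of its 210 regions of 25 to 50 kb, 3 (1.43%) were lower, and of its 147 regions of 15 to 25 kb, 3 (2.04%). The 316 regions under 15 kb, among them Hoxa7 and Hoxa9, held 12 lower genes (3.80%). Outside the densest class, 24 of 4555 regions of 50 kb or more were lower (0.527%). The lower genes had a median length of 51.1 kb and a median of 16.3 WT counts per kb. The higher genes had medians of 19.2 kb and 9.90, and all tested genes of 54.1 kb and 6.12. The densest class as a whole took 19.8% of the counts over tested genes in D546R, 21.4% in D544R and 20.9% in WT.

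**Figure D3:**
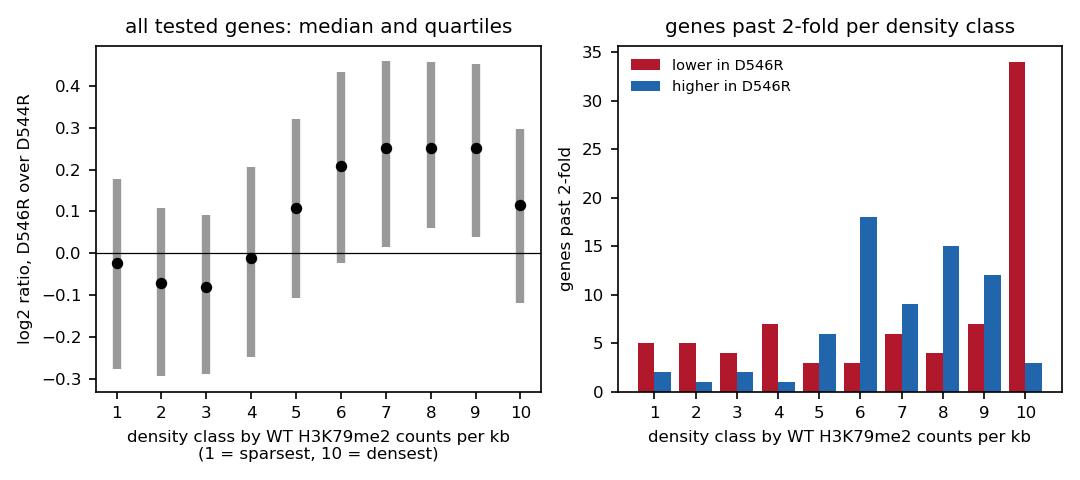
Left, median (point) and quartiles (bar) of the log2 ratio D546R over D544R in 10 density classes of the 8905 tested genes, ordered by WT H3K79me2 counts per kb from sparsest to densest. Right, genes lower (red) and higher (blue) in D546R in each class. The densest class, 891 genes, holds 34 lower and 3 higher genes, while classes 6 to 9, 3562 genes, hold 54 of the 69 higher genes.

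H3K79me3 was measured in other libraries of the same genotypes and gave a second reading of the same genes. These libraries had more reads per independent fragment, with estimates of 18.6 in D546R, 8.12 in D544R and 9.73 in WT. Of the 78 genes lower in H3K79me2, 61 had an H3K79me3 ratio below 0 (78.2%), against 54.3% of all tested genes, and their median H3K79me3 log2 ratio was -1.13. Of the 74 that also reached a mean of 100 in H3K79me3, 40 were at least 2-fold lower there and none was higher. With fragment intervals 34 were lower. Over all 8411 genes that reached 100 in both marks, 6.57% were lower in H3K79me3 and 4.03% were higher. All 21 lower genes with a mean of at least 1000 were below 0 in H3K79me3, against 64.2% of the 899 genes of that size. Of these 21, 18 were at least 2-fold lower, against 4.56%. The exceptions were Rnf220 (-0.88), Arid1b (-0.99) and Mef2c (-0.71).

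The marks differed in size for single genes. Tsc22d2 was at -2.07 in H3K79me2 and -3.28 in H3K79me3, and Meis1 was at -3.33 and -2.44. Hoxa9 was at -3.07 and -1.40, and Hoxa10 at -3.16 and -1.60. Cdk6, short of 2-fold in H3K79me2 (-0.84), was past it in H3K79me3 (-1.46), and so was Zeb2 (-0.90 and -1.27).

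The H3K79me3 ratios of the higher genes lay on both sides of 0. Of the 69, 40 had an H3K79me3 ratio above 0 (58.0%), against 45.7% of all tested genes. Of the 52 that reached a mean of 100 in H3K79me3, 7 were higher there and 5 were lower, or 6 and 1 with fragment intervals. Chl1, 2.07 in H3K79me2, was at 0.32 in H3K79me3. Ccr1 was at 0.98 and Chil3 at 1.36, but the 9 tested mature myeloid genes had a median H3K79me3 log2 ratio of -0.40, of opposite sign to their median of 0.71 in H3K79me2. Over all tested genes the H3K79me3 median was -0.05. Bcl2a1b was at -0.95 and its near copy Bcl2a1d at 2.05, and the pair summed to 303 H3K79me3 counts in D546R, 160 in D544R and 209 in WT. Across the 8411 genes with enough counts in both marks the ratios had a correlation of 0.14, and across the 899 genes with an H3K79me2 mean of at least 1000 it was 0.64. These values describe genes within 2 pairs of libraries, and genes are not replicates.

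**Figure D4:**
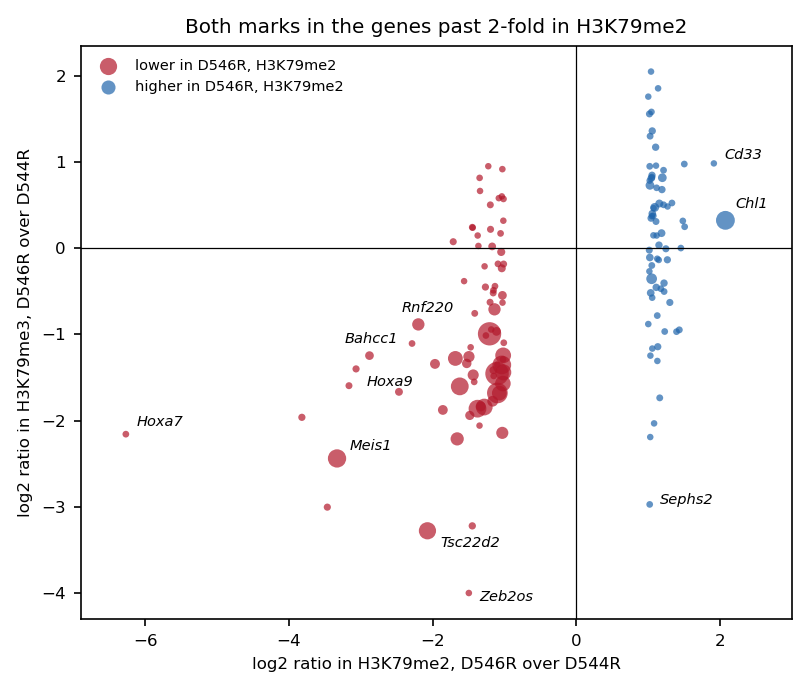
Log2 ratio D546R over D544R in H3K79me3 (vertical axis) against that in H3K79me2 (horizontal axis) for the 78 genes lower (red) and 69 genes higher (blue) in H3K79me2, with larger points for larger mean H3K79me2 counts. The large red points all lie below 0 on both axes, Meis1 at -3.33 and -2.44, while the blue points scatter around 0 in H3K79me3.

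Some lower genes lay near each other. A lower gene with another, non-overlapping lower gene within 200 kb was found for 21 of the 78 (26.9%), against 2.37% of all tested genes with a lower gene that near. Without the HoxA stretch and Skap2 it was 15 of 72 (20.8%), against 2.30%. The HoxA stretch ran from Skap2, an adaptor gene (1432, 3692 and 4818 counts in D546R, D544R and WT, a log2 ratio of -1.02), to Hoxa10. Other neighbours on the list included Atp11b with Dcun1d1, Erbb2ip with Nln, Baz2b with Cd302, Snx9 with Serac1, Ptgr1 with Dnajc25, and Fdx1 with Rdx and Zc3h12c. Dcun1d1, which promotes cullin neddylation, had 637 counts in D546R, 2562 in D544R and 3151 in WT (log2 ratio -1.66), and Atp11b, a phospholipid flippase gene, had 1411, 3651 and 4126 (-1.02). The calls of Skap2, Atp11b, Nln and Rdx were lost with size factors over all 6 libraries and with the summed silent genes. The 190 uncalled genes within 200 kb of a lower gene had a median log2 ratio of -0.11, with 62.1% below 0. The other 8568 uncalled genes had a median of 0.10, with 38.4% below 0. Of the higher genes 4 of 69 (5.80%) had a higher neighbour, against 1.76% of tested genes. They were Gp49a with Lilrb4, which share near-identical sequence, and Rchy1 with Cdkl2.

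Other gene lists showed few calls, as did all tested genes, of which 0.876% were lower and 0.775% higher. In lists this small, an absence of calls therefore says little about the list. Of the 19 tested DOT1L and elongation complex genes, Bcor was lower and none was higher, with a median of 0.16. Dot1l itself had 232 counts in D546R, 283 in D544R and 402 in WT, a log2 ratio of 0.06 (-0.20 to 0.32), and Mllt3, which encodes AF9, stood at 0.12 (-0.31 to 0.55). Ctr9, a subunit of the PAF complex, was highest at 0.70. None of the 21 tested histone and DNA modifier genes was called, the extremes being the demethylase gene Kdm6a at -0.54 and the acetyltransferase gene Crebbp at 0.60, with a median of 0.26. None of the 11 stem and progenitor genes was called. Their median was -0.08, with Hlf, a leucine zipper factor of stem cells, at -0.77 and the chromatin protein gene Hmga2 at 0.87.

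Cell cycle and replication genes had 18 tested members, none called, with a median of 0.40. Of these 18, 15 were above 0, against 60.8% of all tested genes. The ribonucleotide reductase gene Rrm2 stood at 0.90 and the helicase subunit gene Mcm3 at -0.28. The 18 had a median of 14.1 WT counts per kb, which falls in density class 8. That class as a whole had a median log2 ratio of 0.25 and a lower quartile of 0.06. In H3K79me3 the median of the 18 was -0.18. The part of density in the lean of this list was not tested. Erythroid and megakaryocyte genes had 7 tested members, none called, with a median of -0.36. Of these 7, 6 were below 0, against 39.2% of all tested genes. The lowest was Car2, a carbonic anhydrase of red cells, at -0.70. The 7 had a median of 3.35 WT counts per kb, at the lower edge of density class 3, which had a median log2 ratio of -0.08. In H3K79me3 the median of the 7 was 0.32. The 12 cell cycle inhibitor and p53 genes had a median of 0.29, from Cdkn1b at -0.80 to Bax at 0.85, and none was called. Of 9 ribosomal protein genes Rpl6 alone was called. No member of the lists for ribosome assembly (14 tested, median 0.05), housekeeping (13, -0.08), granulocyte and monocyte progenitors (4, -0.04), lymphoid cells (3, 0.17), mast cells and basophils (3, 0.08), stroma and endothelium (4, 0.13), the interferon response (3, -0.07) or silent genes (4, 0.21) was called. The reference genes Gapdh, with 60, 89 and 105 counts in D546R, D544R and WT, and Actb, with 84, 78 and 82, were under the count minimum at -0.22 and 0.45.

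**Figure D5:**
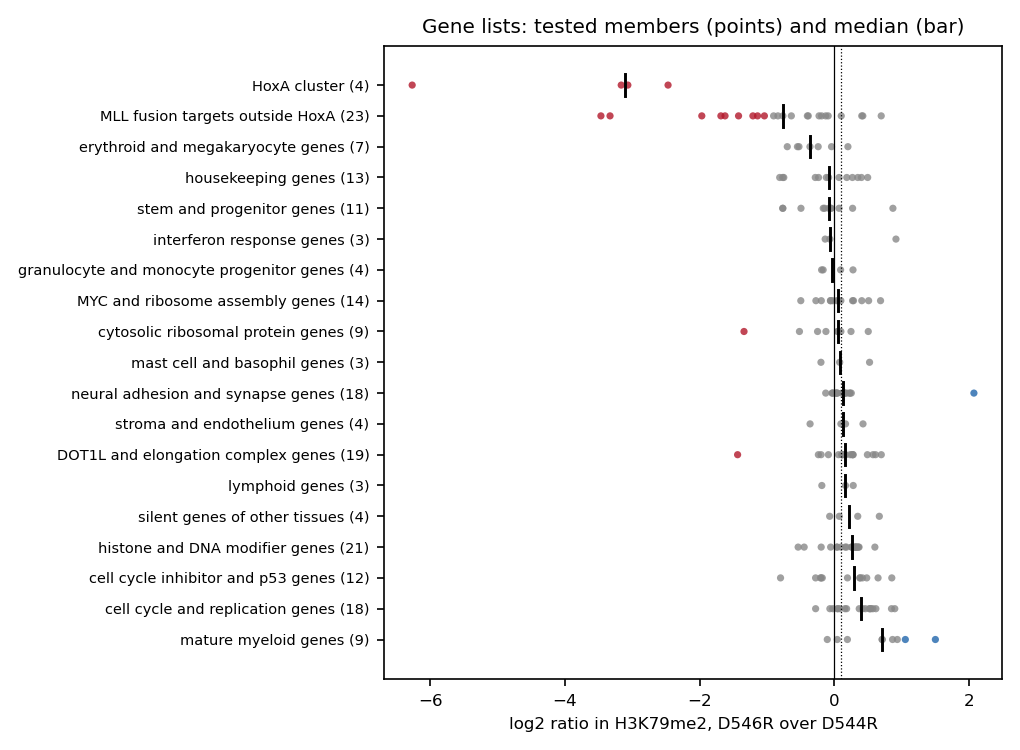
Log2 ratio D546R over D544R in H3K79me2 (horizontal axis) of the tested members (points) of 19 gene lists, with each list's median (bar) and number of tested members; red and blue points are genes past 2-fold. The HoxA list (median -3.12) and the other MLL fusion targets (-0.76) lie lowest and the mature myeloid genes (0.71) highest; the dotted line is the median of all tested genes, 0.09.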

How the data were processed

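The authors deposited unnormalised read counts for each gene. Per the file headers, a region reached from the transcript end to 2 kb upstream of the start. Allowing for the shift between builds, the region of plus-strand Chl1 began before its start site. Those of the minus-strand genes Meis1 and Hoxa9 ended near theirs. For these minus-strand genes the 2 kb thus appears to lie past the transcript end. The submitters' processing notes name Bowtie, bedtools, DESeq and mm9, and the sources used here give neither their roles nor any step that removed duplicate reads. Per the labels, each library pools more than a single sequencing run.

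Size factors were medians of ratios over the 3 libraries of a mark (23029 genes for H3K79me2, 20863 for H3K79me3), centred to a geometric mean of 1: 0.764, 0.972 and 1.35 for D546R, D544R and WT in H3K79me2. Log2 ratios used a prior count of 0.5, and intervals were exact conditional binomial (Clopper-Pearson, 95%). Fragment intervals divided counts by reads per fragment, estimated from the 4591 autosomal regions under 5 kb, which treats all of them as reachable. The steps were tested on simulated counts that held counting error only. The simulation therefore did not check the intervals where a fragment gives several reads, as estimated for these libraries. Python 3.11.15, pandas 2.3.3, scipy 1.17.1 and, for TMM factors, edgeR 4.0.16 in R 4.3.3 were used. Table totals were 3558329 to 6652571 counts per library. No input or spike-in was used here, so a difference in the mark over the whole genome cannot be seen.

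The comparison and the 19 gene lists (396 genes, 394 in the table) were chosen with earlier results of these data known. Genes were named as the 12 per direction with intervals farthest from 0, the 10 per direction with the largest ratios, the extremes of each list and 16 fixed genes, 68 in all, leaving out predicted, Mir, Snor and histone names from the first parts. Any further gene was chosen after its values were seen. The alternatives were 6 scalings, count minimums, a 1.5-fold threshold, other intervals, prior counts and density ranks, and non-overlapping regions. Strand is not in the table, so exons were not assigned. Some genes that enter the counts are not reported here by name.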

Additional observations from a re-analysis of the deposited data

How the results depend on the processing

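In place of 78 lower and 69 higher genes of 8905 tested, a 1.5-fold threshold gave 398 and 714. No count minimum gave 1939 and 945 of 24012 genes. A mean of at least 300 left 34 and 11 of 3838, and a mean of at least 1000 left 21 and 2 of 899. Non-overlapping regions alone gave 53 and 44 of 5302. Where the number tested differs this much, counts cannot be set directly against 78 and 69. Total counts gave 38 higher genes, and size factors from the silent genes alone 45 lower and 200 higher. The lower genes with WT nearer to D544R (76) numbered 354, 1663, 33, 21 and 43 at 1.5-fold, with no minimum, at 300, at 1000 and with the silent genes alone. The higher ones (61) numbered 612, 683, 8, 1 and 190 under the same settings, 40 in non-overlapping regions, 32 with total counts and 94 with the summed silent genes. The median log2 ratio of the densest class (0.12) changed sign at a mean of at least 1000 (-0.10), where 899 genes were ranked. It was 0.18 with classes of double the size, 0.086 at 300, 0.17 with no minimum, 0.15 in non-overlapping regions, 0.17 with size factors over all 6 libraries, 0.037 with total counts, 0.19 with the summed silent genes and 0.30 with the silent genes alone. The share of lower genes below 0 in H3K79me3 (78.2%) was 60.6% at 1.5-fold, 56.0% with no minimum, 97.1% at 300, 100% at 1000 and 91.1% with the silent genes alone. The share of higher genes above 0 (58.0%) was 72.7% at 300 and 32.5% with the silent genes alone. The cause of these shifts was not tested. The silent-gene scaling also moved the H3K79me3 ratios of all genes, not those of the called genes alone. The shares over all tested genes, 54.3% below 0 and 45.7% above 0 in H3K79me3, hold for the main setting. They were not computed for that scaling, so 91.1% and 32.5% have no share over all genes beside them. Of the 30 named genes past 2-fold, Jmjd1c was lost with size factors over all 6 libraries and with the summed silent genes, Cdkl2 with total counts, and Jmjd1c and Mef2c with the silent genes alone, where Hmga2, Rrm2, Ddx58 and Bax passed it. TMM factors, the 2 mutant columns alone, fragment intervals and a prior count of 5 changed none of these 30 calls. Of the 68 named genes 14 had a fragment interval, but no counting interval, that included no change. Of the list medians 123 kept and 10 moved. No paired analysis was possible because each group had 1 library. Regions with few counts, such as Hoxa7 with 2 in D546R, have wide intervals, and no interval covers variation between cultures.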

Other observations

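Some regions past 2-fold belong to RNA genes or repeats rather than protein-coding genes. The noncoding 2700086A05Rik, within the HoxA stretch and overlapping 4 other regions, had 22 counts in D546R, 404 in D544R and 384 in WT (log2 ratio -3.82). The ribosomal RNA unit Rn45s, a multicopy sequence, had 223, 587 and 501 counts (-1.05) and was 1 of the 2 lower genes with WT nearer to D546R. The microRNA regions Mir1931 (47, 137 and 217 counts, -1.19) and Mir101c (250, 129 and 297 counts, 1.30) stood on opposite sides. Sephs2, a selenophosphate synthesis gene, was higher in H3K79me2 (1.02, lost with total counts) and below 0 in H3K79me3 (-2.97), where it was under the count minimum. By chromosome, chromosome 6, which holds HoxA and Chl1, had 10 lower genes of 507 tested (1.97%), 6 of them in the stretch from Skap2 to Hoxa10, where regions overlap. The shares were 1.69% on chromosome 13, 1.66% on chromosome 17 and 0.876% over all tested genes.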
